A study of Homo sapiens with 10 samples.

Results

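The comparison described here is IL1β against vehicle in 12Z cells, an established immortalized line derived from epithelial cells of human peritoneal endometriosis. It takes the 2 libraries labelled 10 ng/ml IL1β and the 2 labelled vehicle, 4 of the 10 libraries in the series, and covers all 15740 genes with enough reads to be tested. Cells were grown in DMEM with 10% FBS and starved overnight in phenol red-free DMEM with 2% charcoal-stripped FBS. Vehicle cells received DMSO and no IL1β. IL1β cells received DMSO for 30 min and then IL1β, and the time label of both groups is 6 h. The remaining 6 libraries received IL1β with a JNK inhibitor and entered the filter, the scaling and the estimate of spread. The labels do not say whether the replicates came from separate cultures, so p-values measure the spread between these samples only, which may be technical.

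IL1β is a cytokine released at sites of inflammation. Its receptor, IL1R1 with the accessory chain IL1RAP, recruits MYD88 and IRAK kinases, which activate NF-κB and the MAP kinases JNK and p38. NF-κB and AP-1 then bind promoters and enhancers of target genes. Peritoneal fluid in endometriosis is known to carry this cytokine, and the line is used as a model of the lesion's epithelial cells.

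Total counts were 17810555 and 19479416 in the vehicle libraries and 16312600 and 18166317 in the IL1β libraries. Replicates correlated at 0.992 in both groups (Pearson r of log2 CPM, across genes), and mitochondrial genes held 3.24% to 3.48% of counts. Levels are CPM, counts scaled to library size with TMM factors, and compare a gene between libraries, not genes with each other. KRT8, KRT18 and KRT19 were abundant, but the epithelial markers EPCAM, ESRP1 and CLDN4 stayed under 1 CPM in all 4 libraries and GRHL2 was at 0. The 12 epithelial markers summed to 9315 and 10090 CPM with vehicle and 9076 and 9197 CPM with IL1β, most of it KRT8. The 8 mesothelial markers summed to 879.9 to 969.6 CPM, and the 12 endometrial stromal markers to 5067 to 5669 CPM, most of it COL1A1. Of these 12, 4 rose and 4 fell, 33.3% each, beside 17.6% and 15% over all genes. PDGFRB had 129 and 122 CPM with vehicle and 52.1 and 52.5 CPM with IL1β. HAND2 had 49.4 and 52.5 CPM with vehicle and 22.2 and 27.2 CPM with IL1β. In the other direction, PDGFRA had 0.6 and 0.511 CPM with vehicle and 4.76 and 4.02 CPM with IL1β. VIM had 387 and 442 CPM with vehicle and 613 and 689 CPM with IL1β. Of 17 immune markers, 15 had a mean under 1 CPM and 7 were at 0. CD14 was the most abundant, with 15.3 and 16.9 CPM with vehicle and 18.4 and 15.8 CPM with IL1β. The integrin ITGAM rose, with 0.739 and 0.920 CPM with vehicle and 4.196 and 4.58 CPM with IL1β. The 9 endothelial markers summed to 50.1 and 54.8 CPM with vehicle and 28.8 CPM in each IL1β library, where KDR made most of the difference. In bulk RNA, fewer cells of a type and less RNA per cell cannot be told apart.

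IL1β changed the transcript level of 5129 genes, 32.6% of those tested (edgeR quasi-likelihood test, Benjamini-Hochberg adjusted p below 0.05). Of these, 2769 (17.6%) rose and 2360 (15%) fell. At least 2-fold changes were called for 679 genes that rose (4.31%) and 490 that fell (3.11%). All log2 changes below are IL1β minus vehicle, ± SE, and a gene is said to rise or fall only where it passed this test. Groups did not overlap for 66.7% of all tested genes, called or not, and nearly all genes named below were chosen for this among called genes, so separate groups are no further support for them. The 679 genes took 2.12% and 2.14% of counts with vehicle and 7.61% and 7.63% with IL1β. The 490 genes took 0.702% and 0.724% with vehicle and 0.251% and 0.256% with IL1β. The median level was 10.1 CPM for the genes that rose at least 2-fold and 2.33 CPM for those that fell as far, against 18.2 CPM over all tested genes.

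The number of lowered genes depended on the scaling. With library totals in place of TMM factors, 1623 genes were higher and 4730 lower, and the median log2 change of all genes moved from -0.01 to -0.18. Every list below is therefore given with its counts under both scalings where the larger side differs. All 490 genes lowered at least 2-fold, and 662 of the 679 raised as far, were also called in that direction with library totals. Leaving out 1 library in turn, 1730 of the 2769 and 932 of the 2360 genes were called in each of the 4 fits. The lower count was 1531 and 1624 without vehicle replicates 1 and 2, and 1393 and 1466 without IL1β replicates 1 and 2.

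**Figure D1:**
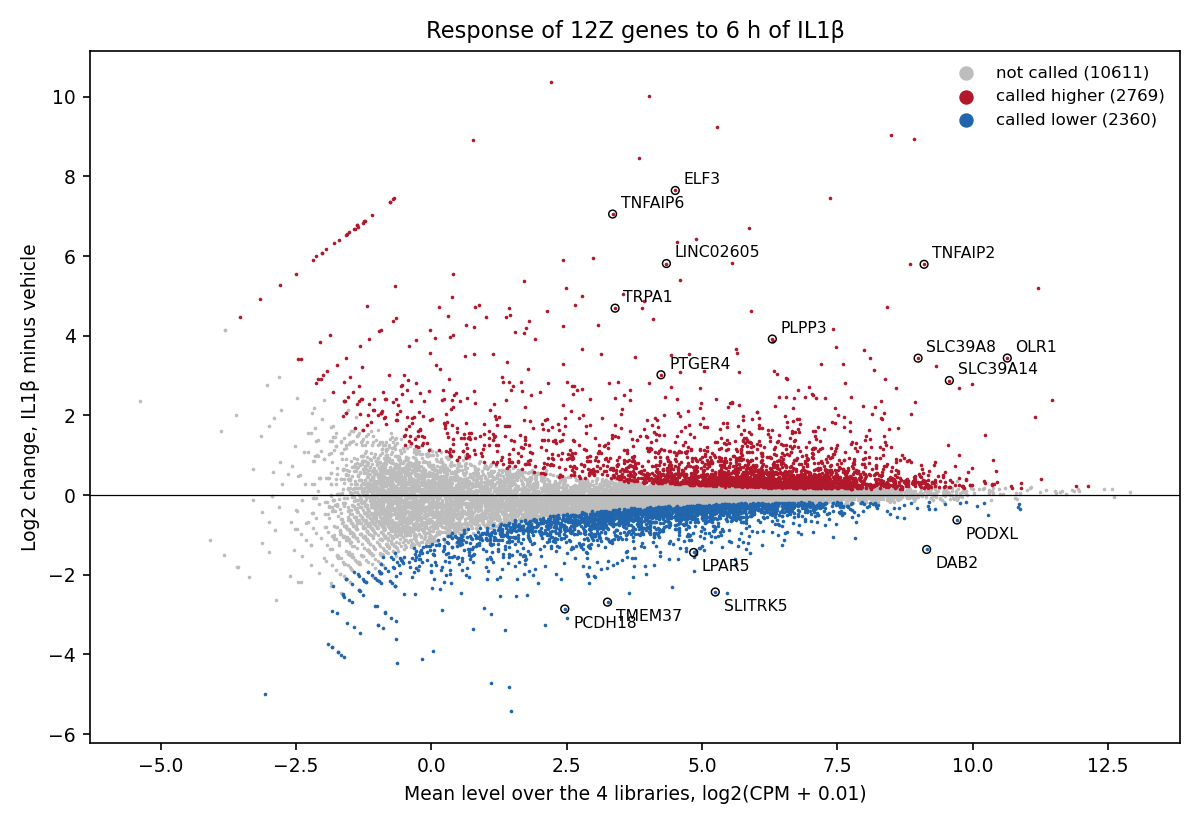
Log2 change (IL1β minus vehicle, vertical axis) against mean level over the 4 libraries (horizontal axis, log2 of CPM plus a small offset) for all 15740 tested genes; red points were called higher (2769), blue points lower (2360), and 16 genes of the text are circled. The straight streaks at low level are genes with 0 counts in a group, whose fitted change is no bound. OLR1 and SLC39A14 rose at high level, and DAB2 and PODXL fell at high level.

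Transporter genes changed in both directions. Of solute carriers, which move ions, sugars, amino acids and metals across membranes, 55 of 228 tested members rose and 47 fell, with a median of -0.02. With library totals the order of the sides turned, to 40 higher and 77 lower. Leaving out each library in turn, 41 and 25 of them were called in every fit. Shares of 24.1% higher and 20.6% lower stand beside 17.6% and 15% over all genes.

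Some carriers of zinc and iron rose. SLC39A8 (ZIP8, chr4:102251041-102431258, minus strand, GRCh38), which imports zinc and manganese, had 86.2 and 85.9 CPM with vehicle and 910.3 and 956 CPM with IL1β (log2 change 3.44 ± 0.07, adjusted p = 2.57e-20). SLC39A14 (ZIP14, chr8:22367249-22434129, plus strand), which imports zinc, manganese and iron not bound to transferrin, had 181 and 184 CPM with vehicle and 1324 and 1353 CPM with IL1β (log2 change 2.88 ± 0.07, adjusted p = 7.55e-20). SLC25A37 (mitoferrin 1, chr8:23528805-23575463, plus strand), the iron importer of mitochondria, had 46.9 and 49.1 CPM with vehicle and 261 and 262 CPM with IL1β (log2 change 2.45 ± 0.07). For each of the 3, the IL1β libraries lay far above the vehicle libraries, with replicates close together. That the groups were separate was required for naming these genes. The Golgi zinc carrier SLC30A7 rose less (0.95 ± 0.10), and SLC39A11 fell (-0.69 ± 0.16). In the zinc carrier list 7 of 19 tested members rose and 3 fell, 36.8% and 15.8% beside 17.6% and 15% over all genes. With library totals it gave 5 higher and 7 lower, and 5 and 1 were called in every fit that left out a library.

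The iron exporter moved the other way. SLC40A1 (ferroportin, chr2:189560579-189583758, minus strand), the only known cellular exporter of iron, had 33.8 and 38.3 CPM with vehicle and 6.71 and 7.85 CPM with IL1β (log2 change -2.31 ± 0.14, adjusted p = 2.97e-12). It was thus 4.96-fold lower, and the reductase CYBRD1, which prepares iron for uptake, fell as well (-0.60 ± 0.07). LCN2 (lipocalin 2), which binds bacterial iron carriers, had 0.277 and 0.0511 CPM with vehicle and 10.3 and 10.9 CPM with IL1β (log2 change 5.91 ± 0.59). STEAP4, a metalloreductase, had 2.17 and 2.3 CPM with vehicle and 22.8 and 26.9 CPM with IL1β (log2 change 3.47 ± 0.19). The metal-binding metallothionein MT2A had 246 and 269.7 CPM with vehicle and 1724 and 1814 CPM with IL1β (log2 change 2.78 ± 0.08), a rise of 6.86-fold. FTH1, the heavy chain of the iron store ferritin, had 590.5 and 666 CPM with vehicle and 1672 and 1875 CPM with IL1β, a rise of 2.82-fold. Its exons overlap BEST1 on the opposite strand, and reads of the 2 genes cannot be told apart where strand was not used in counting. Of the whole iron and metal list 14 of 29 tested members rose and 5 fell (median 0.55). These are 48.3% and 17.2%, beside 17.6% and 15% over all genes. Library totals gave 13 higher and 7 lower, and 14 and 2 were called in every fit that left out a library. All genes named in these 2 paragraphs had adjusted p of at most 0.00187.

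Carriers of sugars, amino acids and ions changed too. SLC2A6 (GLUT6, chr9:133471095-133479137, minus strand), a hexose carrier of lysosomal membranes, had 89.9 and 85.6 CPM with vehicle and 420.2 and 407 CPM with IL1β (log2 change 2.24 ± 0.07). SLC2A1 (GLUT1), the main glucose importer of many cells, had 47.8 and 49.95 CPM with vehicle and 87.7 and 88.4 CPM with IL1β (log2 change 0.85 ± 0.10). The lactate exporter SLC16A3 (MCT4) rose by 0.76 ± 0.07, and the fructose carrier SLC2A5 fell by a log2 change of -1.17 ± 0.27. Among amino acid carriers, SLC7A2, which takes up arginine and lysine, had 25.1 and 21.2 CPM with vehicle and 87.6 and 83.2 CPM with IL1β (log2 change 1.88 ± 0.10). SLC43A2, a carrier of branched-chain amino acids, rose 3.57-fold. The glutamate carrier SLC1A3 had 11.9 and 10.9 CPM with vehicle and 4.81 and 5.71 CPM with IL1β (log2 change -1.12 ± 0.15). The potassium-chloride cotransporter SLC12A7 (KCC4) had 28.4 and 24.3 CPM with vehicle and 149.8 and 142 CPM with IL1β (log2 change 2.46 ± 0.09), while the sodium-bicarbonate cotransporter SLC4A4 changed by -1.17 ± 0.22 and the nucleoside carrier SLC29A2 by -1.21 ± 0.18. The largest adjusted p here was 0.00152.

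ABC transporters, which use ATP to pump lipids, peptides or drugs, gave 7 higher and 6 lower of 31 tested, 22.6% and 19.4% beside 17.6% and 15% over all genes (library totals 7 and 12). ABCA1 (chr9:104781002-104928237, minus strand), which hands cholesterol to apolipoproteins, had 33.05 and 32.1 CPM with vehicle and 97.5 and 112 CPM with IL1β (log2 change 1.69 ± 0.09). TAP1 and TAP2, the pair that moves peptides to MHC class I molecules, rose 2.31-fold and 1.72-fold. Mitochondrial carriers gave 7 higher and 10 lower of 40, 17.5% and 25% (library totals 3 and 17), and P-type ATPases 6 and 2 of 22, 27.3% and 9.09% (library totals 4 and 6). ATP2B1, a calcium pump of the plasma membrane, had 133 and 131 CPM with vehicle and 231 and 225 CPM with IL1β (log2 change 0.79 ± 0.07).

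Potassium channels fell more often than they rose. Of potassium channels 2 of 35 tested members rose and 8 fell, 5.71% and 22.9% beside 17.6% and 15% over all genes (median -0.19). Of calcium, sodium, chloride and TRP channels 12 of 76 tested members rose and 15 fell, 15.8% and 19.7% beside 17.6% and 15% over all genes. Library totals gave 1 higher and 9 lower, and 11 higher and 27 lower. Calls made in every fit that left out a library were 1 higher and 4 lower, and 8 higher and 6 lower, so the order of the second list turned. TRPA1 (chr8:72019917-72075617, minus strand), a cation channel opened by irritants and best known from sensory neurons, had 0.739 and 0.818 CPM with vehicle and 20.4 and 20.1 CPM with IL1β (log2 change 4.69 ± 0.26, adjusted p = 2.34e-15). Its exons overlap the antisense gene MSC-AS1, which also rose (1.93 ± 0.13), so their reads may be mixed. The mechanically gated channel PIEZO1 had 232 and 224 CPM with vehicle and 364 and 365 CPM with IL1β (log2 change 0.68 ± 0.07). On the lower side stood the potassium channels KCNN2 (-1.04 ± 0.20) and KCNH2 (-0.89 ± 0.14), the epithelial sodium channel subunit SCNN1A (-0.92 ± 0.16) and the lysosomal channel MCOLN3 (-0.98 ± 0.23).

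Junction and water channel genes split. CLDN1, a sealing protein of tight junctions, had 31.9 and 42.3 CPM with vehicle and 170.4 and 167 CPM with IL1β (log2 change 2.19 ± 0.09). Cingulin (CGN), which ties tight junctions to actin, had 13.4 and 11.3 CPM with vehicle and 2.46 and 2.89 CPM with IL1β (log2 change -2.21 ± 0.22). GJA1 (connexin 43), the main gap junction protein of many tissues, had 197 and 192 CPM with vehicle and 113 and 118 CPM with IL1β (log2 change -0.75 ± 0.07). CLDN1 was 4.56-fold higher and CGN 4.63-fold lower. AQP3, which passes water and glycerol, rose 2.37-fold and the water channel AQP1 fell 2.64-fold. The list had 8 higher and 6 lower of 31, 25.8% and 19.4% beside 17.6% and 15% over all genes (library totals 5 and 11).

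**Figure D2:**
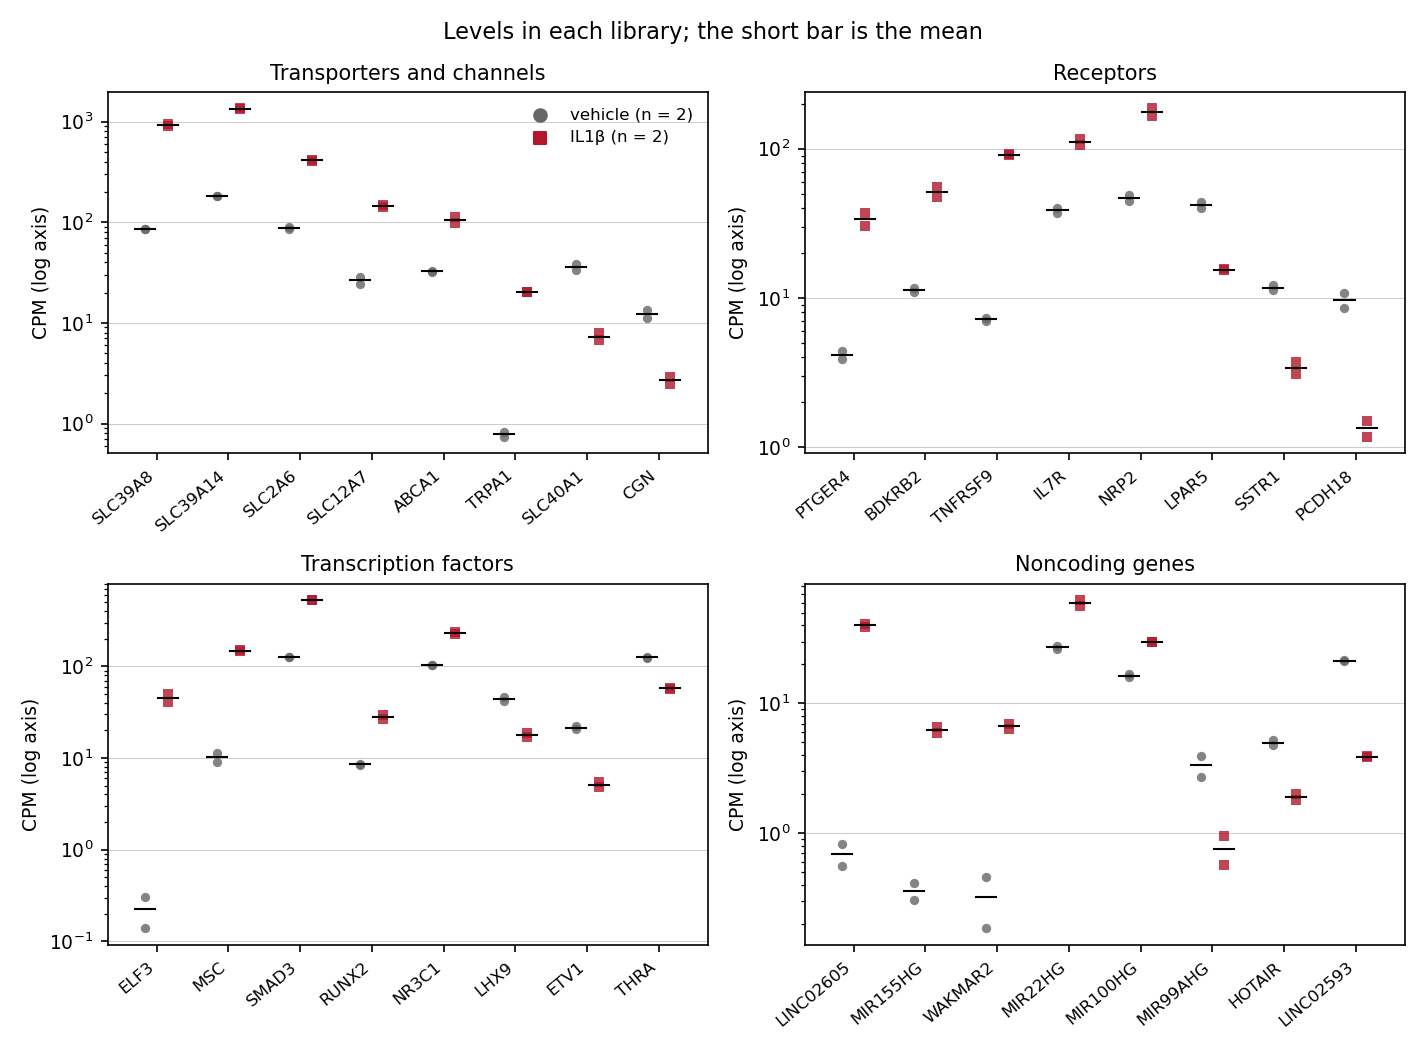
Level in CPM (log axis) of 32 genes named in the text in each library, with grey circles for the 2 vehicle libraries, red squares for the 2 IL1β libraries and short bars for the means. The 2 libraries of each group lie apart from those of the other because the genes were named for this, so the plot shows the size of each change.

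G protein-coupled receptors changed in both directions. Of 111 tested, 25 rose and 26 fell (median -0.05; library totals 19 and 33), and 22 and 17 of these were called in every fit that left out a library. These are 22.5% and 23.4%, beside 17.6% and 15% over all genes. PTGER4 (chr5:40679498-40693735, plus strand), the EP4 receptor of prostaglandin E2 that raises cyclic AMP, had 4.38 and 3.88 CPM with vehicle and 30.4 and 37.05 CPM with IL1β (log2 change 3.02 ± 0.14, adjusted p = 8.99e-15). PTGER3 (chr1:70852353-71047808, minus strand), the EP3 receptor of the same ligand, which lowers cyclic AMP, had 19.6 and 19.6 CPM with vehicle and 7.38 and 5.78 CPM with IL1β (log2 change -1.57 ± 0.16, adjusted p = 1.97e-08). The EP4 gene was 8.11-fold higher and the EP3 gene 2.96-fold lower. PTGER2, the EP2 receptor of prostaglandin E2, was tested and not called (log2 change -0.93).

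Both bradykinin receptors rose. BDKRB2, the constitutive B2 receptor, had 10.9 and 11.7 CPM with vehicle and 47.5 and 55.2 CPM with IL1β (log2 change 2.19 ± 0.11). BDKRB1, the B1 receptor known to be induced in injured tissue, had 78.1 and 78.2 CPM with vehicle and 266 and 279 CPM with IL1β (log2 change 1.80 ± 0.07). The orphan receptors GPRC5B and GPRC5A rose 4.09-fold and 2.01-fold, where GPRC5B shares exon sequence with IQCK on the other strand. ADORA2A, an adenosine receptor that raises cyclic AMP, had 0.462 and 0.460 CPM with vehicle and 2.74 and 2.07 CPM with IL1β (log2 change 2.37 ± 0.41). Among lowered receptors, the lysophosphatidic acid receptor LPAR5 had 44.1 and 40.03 CPM with vehicle and 15.4 and 15.6 CPM with IL1β (log2 change -1.44 ± 0.11). The somatostatin receptor SSTR1 had 11.3 and 12.2 CPM with vehicle and 3.08 and 3.71 CPM with IL1β (log2 change -1.79 ± 0.20). GPER1, which binds oestrogens at membranes, was 3.22-fold lower and the endothelin receptor EDNRA 3.07-fold lower. Among these receptors adjusted p was at most 2.69e-05. The other tested receptors of somatostatin and endothelin, SSTR2 (log2 change 3.91) and EDNRB (2.53), were called higher.

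Cytokine receptors leaned to the higher side, with 36.4% raised and 12.1% lowered beside 17.6% and 15% over all genes. Of 33 interleukin and interferon receptors, 12 rose and 4 fell (median 0.48; library totals 10 and 5; 10 and 1 in every fit that left out a library). IL7R, the receptor chain of IL7 and TSLP, had 36.9 and 40.3 CPM with vehicle and 117 and 106 CPM with IL1β (log2 change 1.53 ± 0.08). IL4R, shared by IL4 and IL13, had 7.01 and 8.49 CPM with vehicle and 20.03 and 20.03 CPM with IL1β (log2 change 1.37 ± 0.13). The 2 chains of the interferon γ receptor, IFNGR1 and IFNGR2, rose 2.25-fold and 2.08-fold, and the oncostatin M receptor OSMR rose 1.87-fold. IL22RA1, a chain of the IL22 receptor, had 3.28 and 3.42 CPM with vehicle and 1.18 and 0.879 CPM with IL1β (log2 change -1.69 ± 0.33, adjusted p = 0.000207). Downstream of the IL1 receptor, the kinase IRAK2 (chr3:10164865-10243743, plus strand) had 6.88 and 8.74 CPM with vehicle and 93.8 and 91.1 CPM with IL1β (log2 change 3.57 ± 0.10, adjusted p = 1.05e-18).

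Surface genes known from contacts with immune cells rose more often than they fell, with 16 higher and 4 lower of 27 (median 0.41). These are 59.3% and 14.8%, beside 17.6% and 15% over all genes. Library totals gave 15 and 6, and 13 and 1 were called in every fit that left out a library. TNFRSF9 (4-1BB, chr1:7915894-7943165, minus strand), a costimulatory receptor of T cells, had 7.01 and 7.36 CPM with vehicle and 91.5 and 91.2 CPM with IL1β (log2 change 3.67 ± 0.10, adjusted p = 3.98e-19). CD40, the receptor of CD40 ligand, had 0.323 and 0.358 CPM with vehicle and 6.16 and 6.53 CPM with IL1β (log2 change 4.19 ± 0.44). CD38, an enzyme that breaks down NAD at the cell surface, had 0.646 and 0.562 CPM with vehicle and 4.59 and 4.21 CPM with IL1β (log2 change 2.85 ± 0.31). Of the immune marker list, 15 of 17 genes were under 1 CPM, as given above. LGALS9 (galectin 9) rose 5.22-fold, and VSIR (VISTA), which restrains T cells, fell (-0.44 ± 0.09).

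Nuclear receptors gave 6 higher and 9 lower of 27, 22.2% and 33.3% beside 17.6% and 15% over all genes (library totals 4 and 11). NR3C1 (chr5:143277931-143435512, minus strand), the glucocorticoid receptor, had 102 and 104 CPM with vehicle and 238 and 227 CPM with IL1β (log2 change 1.17 ± 0.07, adjusted p = 1.69e-12). VDR, the vitamin D receptor, had 3.32 and 2.71 CPM with vehicle and 5.82 and 5.84 CPM with IL1β (log2 change 0.94 ± 0.20). The COUP factors NR2F1 and NR2F2, the second of which is known from uterine stroma, fell 2.46-fold and 1.65-fold. THRA, the α thyroid hormone receptor, had 125 and 125 CPM with vehicle and 56.7 and 58.1 CPM with IL1β (log2 change -1.12 ± 0.07), and shares exon sequence with NR1D1.

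Guidance receptors and cadherins also changed. Semaphorins, plexins, ephrins and their receptors gave 19 higher and 17 lower of 60, 31.7% and 28.3% beside 17.6% and 15% over all genes. Library totals gave 15 and 24. NRP2, a receptor of class 3 semaphorins and VEGFC, had 44.5 and 48.6 CPM with vehicle and 186 and 165 CPM with IL1β (log2 change 1.92 ± 0.08). The semaphorins SEMA6D and SEMA3A were 3.01-fold and 1.99-fold lower, and the ephrin EFNB1 was 2.37-fold higher. Cadherins and protocadherins, which join cells of like type, gave 4 higher and 11 lower of 45, 8.89% and 24.4% (median -0.18). Library totals gave 1 and 18, and 2 and 7 were called in every fit that left out a library. PCDH18 (chr4:137518918-137532494, minus strand) had 10.8 and 8.59 CPM with vehicle and 1.18 and 1.51 CPM with IL1β (log2 change -2.86 ± 0.29, adjusted p = 6.94e-09). PCDH10 had 21.3 and 20.1 CPM with vehicle and 6.21 and 5.78 CPM with IL1β (log2 change -1.78 ± 0.16).

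**Figure D3:**
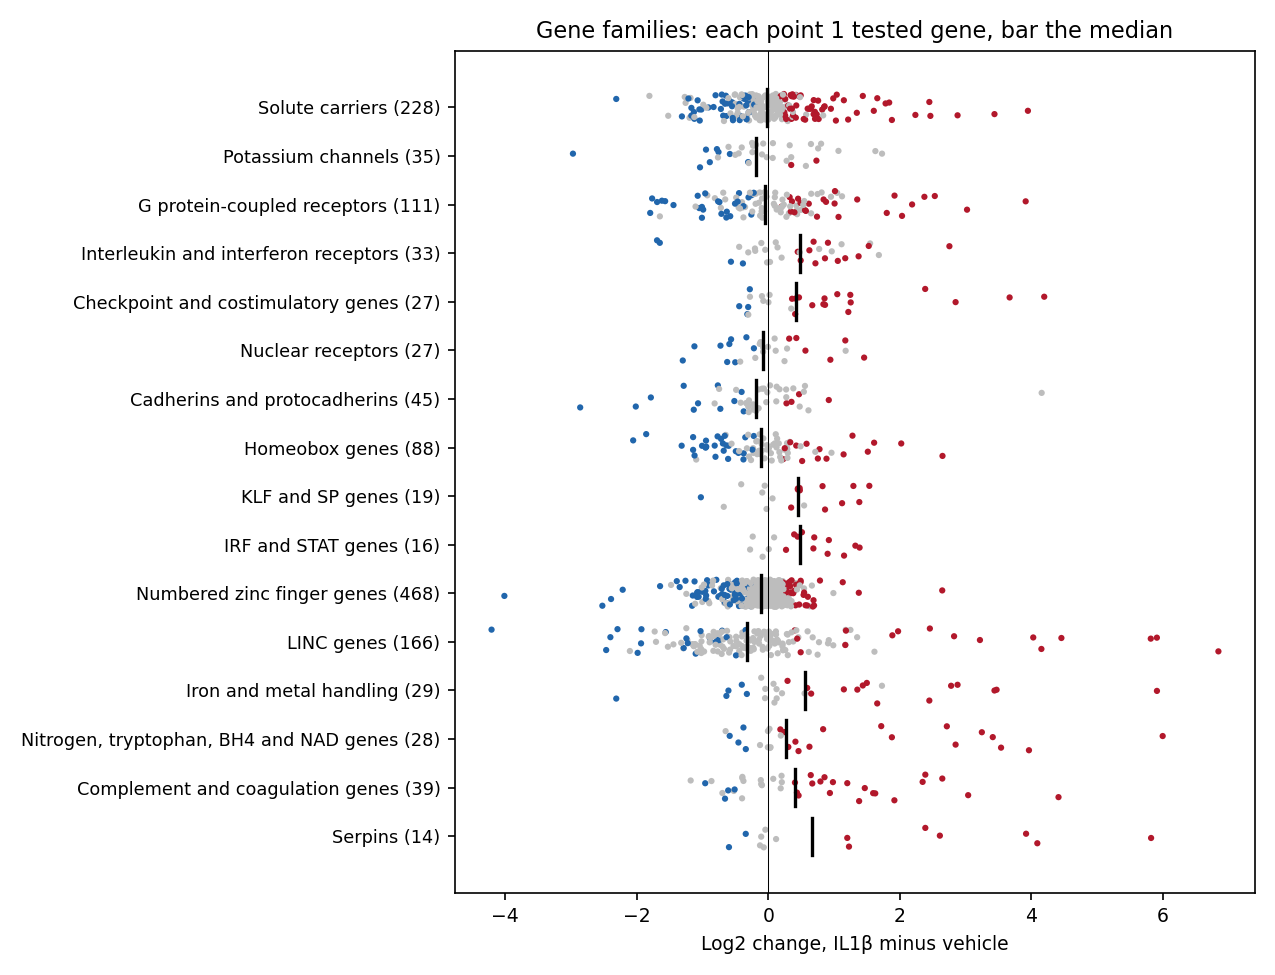
Log2 change (horizontal axis, IL1β minus vehicle) of every tested gene in 16 families, numbers of tested members in brackets; red was called higher, blue lower, grey not called, and the black bar is the median. Medians run from -0.32 for LINC genes to 0.66 for serpins.

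Transcription factors with large rises came from several families. ELF3 (chr1:202007945-202017188, plus strand), an ETS factor of epithelia, had 0.139 and 0.307 CPM with vehicle and 40.7 and 49.9 CPM with IL1β (log2 change 7.65 ± 0.54, adjusted p = 7.54e-17). MSC (musculin, chr8:71841549-71844468, minus strand), a repressor of the basic helix-loop-helix family, had 11.3 and 8.95 CPM with vehicle and 147 and 149 CPM with IL1β (log2 change 3.87 ± 0.10, adjusted p = 1.42e-19). SMAD3 (chr15:67063763-67195195, plus strand), the transducer of TGF-β and activin signals, had 126 and 128 CPM with vehicle and 529.7 and 529.6 CPM with IL1β (log2 change 2.06 ± 0.07, adjusted p = 3.72e-17). All 3 were raised in both IL1β libraries, which was required for naming them, and ELF3 rose from near 0. ELF3 shares exon sequence with ELF3-AS1, and MSC with MSC-AS1. IRF1, PAX8, NR2F1, IFNGR2 and other named genes also touch antisense genes or neighbours on the opposite strand. PRDM1 (BLIMP1), a repressor best known from plasma cells, had 0 and 3 counts with vehicle and 39 and 45 with IL1β, a ratio of 34.2 (95% exact counting interval 11.3 to 169, counting error only).

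Other raised factors covered stress, clock and lineage roles. BACH1, a haem-regulated repressor, had 46.5 and 42.3 CPM with vehicle and 134.1 and 119.7 CPM with IL1β (log2 change 1.51 ± 0.08). RUNX2, known as the master factor of bone, had 8.35 and 8.64 CPM with vehicle and 29.5 and 26.3 CPM with IL1β (log2 change 1.72 ± 0.15), and its relative RUNX1 rose 1.95-fold. POU2F2 (OCT2), known from B cells, had 2.17 and 1.33 CPM with vehicle and 10.7 and 11.6 CPM with IL1β (log2 change 2.65 ± 0.22). PAX8, a factor of Müllerian epithelia and one of the epithelial markers, had 5.4 and 5.06 CPM with vehicle and 16.3 and 13.6 CPM with IL1β (log2 change 1.51 ± 0.17). NPAS2, a partner of the clock factor BMAL1, rose 6.72-fold. Adjusted p was at most 1.03e-07.

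Among the factor families listed, the Krüppel-like and the interferon-linked factors had the largest shares of members raised. Of 19 KLF and SP genes 11 rose and 1 fell, 57.9% and 5.26% beside 17.6% and 15% over all genes (median 0.45). Library totals gave 10 and 4, and 8 and 0 were called in every fit that left out a library. KLF6 had 58.6 and 58.7 CPM with vehicle and 156 and 150.3 CPM with IL1β (log2 change 1.38 ± 0.08). KLF9, KLF3 and KLF2 rose 2.9-fold, 2.45-fold and 2.18-fold. Of 16 IRF, STAT and related genes 11 rose and 0 fell, 68.8% and 0% (median 0.48). Library totals gave 9 and 2, and 9 and 0 were called in every such fit. IRF1 had 13.98 and 15.2 CPM with vehicle and 33.9 and 39.3 CPM with IL1β (log2 change 1.32 ± 0.10), and STAT5A and STAT3 rose 2.22-fold and 1.89-fold.

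Homeobox genes fell more often than they rose. Of 88 homeobox genes, which set position and lineage, 15 rose and 28 fell (median -0.11). These are 17% and 31.8%, beside 17.6% and 15% over all genes. Library totals gave 10 and 39, and 9 and 17 were called in every fit that left out a library. HOXC12 (chr12:53954834-53958956, plus strand) had 13.2 and 14.4 CPM with vehicle and 3.86 and 3.77 CPM with IL1β (log2 change -1.85 ± 0.19, adjusted p = 2.26e-08). HOXC10 had 13.4 and 13.6 CPM with vehicle and 5.99 and 6.22 CPM with IL1β (log2 change -1.14 ± 0.14). LHX9, a LIM factor known from the embryonic gonad, had 46.5 and 42.1 CPM with vehicle and 17.1 and 18.5 CPM with IL1β (log2 change -1.32 ± 0.10). By HOX cluster, chosen for counting after these values were seen, 0 of 9 tested HOXC genes rose and 5 fell. HOXB gave 1 higher and 5 lower of 8, HOXD 0 and 2 of 4, and HOXA 3 and 3 of 11 (library totals 2 and 5 for HOXA).

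Of 468 numbered zinc finger genes, many of them repressors of the KRAB type, 37 rose and 69 fell (7.91% and 14.7%, median -0.11). Both shares lie under those of all genes, 17.6% and 15%. Only 15 and 22 of the calls were made in every fit that left out a library, and library totals gave 15 and 152. ZNF608 had 4.15 and 4.04 CPM with vehicle and 0.895 and 0.502 CPM with IL1β (log2 change -2.52 ± 0.38), and ZNF469 had 0.554 and 0.971 CPM with vehicle and 5.203 and 4.27 CPM with IL1β (log2 change 2.64 ± 0.34).

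Single lowered factors of other families included ETV1, an ETS factor, with 22.3 and 20.5 CPM with vehicle and 5.43 and 4.83 CPM with IL1β (log2 change -2.06 ± 0.15, adjusted p = 1.08e-10). MYCN had 6.18 and 6.59 CPM with vehicle and 1.46 and 1.32 CPM with IL1β (log2 change -2.19 ± 0.29). MITF, the master factor of melanocytes, had 11.1 and 10.6 CPM with vehicle and 4.53 and 4.77 CPM with IL1β (log2 change -1.23 ± 0.17). The forkhead genes FOXO6 and FOXQ1 fell 2.86-fold and 2.33-fold. Their family gave 6 higher and 6 lower of 25, 24% each, beside 17.6% and 15% over all genes (library totals 4 and 7). TET1, which oxidises methylated cytosine, fell 2.77-fold.

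Noncoding genes were called less often than coding genes, and most were at low level. Of 1698 long noncoding genes 106 rose and 129 fell, 13.8% called, with a median level of 0.991 CPM. Of 12962 protein-coding genes 2613 rose and 2178 fell, 37.0% called, with a median of 28.6 CPM. At a mean of 5 CPM and over, 34.9% of 189 long noncoding and 40.7% of 10275 coding genes were called. Under 1 CPM the shares were 9.12% of 855 and 13.9% of 1010. With library totals long noncoding genes gave 85 higher and 237 lower, and leaving out each library in turn left 53 and 25 called in every fit.

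LINC02605, a long intergenic RNA, had 0.831 and 0.562 CPM with vehicle and 41.1 and 38.8 CPM with IL1β (log2 change 5.81 ± 0.27, adjusted p = 2.58e-18). WAKMAR2, which lies beside the NF-κB inhibitor TNFAIP3 and overlaps its exons slightly on the opposite strand, had 0.185 and 0.460 CPM with vehicle and 6.88 and 6.41 CPM with IL1β (log2 change 4.37 ± 0.42). LINC02593 (chr1:916865-921016, minus strand) had 21.3 and 21.5 CPM with vehicle and 3.92 and 3.83 CPM with IL1β (log2 change -2.46 ± 0.16, adjusted p = 6.05e-12). HOTAIR, the antisense RNA of the HOXC cluster, had 4.75 and 5.21 CPM with vehicle and 1.79 and 2.01 CPM with IL1β (log2 change -1.39 ± 0.27). The first 2 went from under 1 CPM to levels no vehicle library reached, and the last 2 fell. Separate groups were required for naming these genes. NEAT1, the scaffold RNA of paraspeckles, was not called (197 and 159 CPM with vehicle and 184 and 183 CPM with IL1β, adjusted p = 0.848). Antisense genes that rose with their partners, ALDH1A3-AS1 (2.46 ± 0.11) and LIF-AS2 (2.83 ± 0.30), share exon sequence with ALDH1A3 and LIF, so reads may be mixed.

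Host genes of microRNAs were measured as long transcripts, and the mature microRNAs were not measured. Of 29 tested hosts 7 rose and 6 fell, 24.1% and 20.7% beside 17.6% and 15% over all genes (library totals 6 and 6). MIR155HG (chr21:25561909-25575168, plus strand), host of a microRNA known from activated immune cells, had 0.415 and 0.307 CPM with vehicle and 5.88 and 6.53 CPM with IL1β (log2 change 4.07 ± 0.45, adjusted p = 2.9e-09). MIR22HG had 26.4 and 27.7 CPM with vehicle and 56.5 and 62.7 CPM with IL1β (log2 change 1.14 ± 0.09). MIR222HG, host of a pair of microRNAs, had 2.49 and 2.91 CPM with vehicle and 5.71 and 8.101 CPM with IL1β (log2 change 1.35 ± 0.23), and MIR31HG had 7.8 and 9.51 CPM with vehicle and 14.9 and 15.1 CPM with IL1β (log2 change 0.80 ± 0.14). The mature sequences that lie inside these hosts are shown to identify what the transcripts could yield, 5′ to 3′ from RefSeq (GRCh38.p14), with the seed (bases 2 to 8) in capitals.
hsa-miR-155-5p (MIR155HG): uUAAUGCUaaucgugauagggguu
hsa-miR-22-3p (MIR22HG): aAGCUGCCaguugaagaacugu
hsa-miR-221-3p (MIR222HG): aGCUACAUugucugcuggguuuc
hsa-miR-222-3p (MIR222HG): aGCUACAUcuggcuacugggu
hsa-miR-31-5p (MIR31HG): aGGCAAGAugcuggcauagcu

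The seeds of miR-221-3p and miR-222-3p are the same. A pair of hosts that carry microRNAs with shared seeds moved in opposite directions. MIR100HG (chr11:122028327-122556721, minus strand) had 16.8 and 15.8 CPM with vehicle and 29.6 and 29.7 CPM with IL1β (log2 change 0.86 ± 0.11, adjusted p = 7.4e-07). MIR99AHG (chr21:15928296-16645065, plus strand) had 2.72 and 3.94 CPM with vehicle and 0.951 and 0.565 CPM with IL1β (log2 change -2.10 ± 0.40, adjusted p = 0.000106). The first was 1.82-fold higher and the second 4.29-fold lower. Each holds a miR-99/100, a let-7 and a miR-125b sequence, shown in that order for the 2 hosts.
hsa-miR-100-5p (MIR100HG): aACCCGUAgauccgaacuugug
hsa-miR-99a-5p (MIR99AHG): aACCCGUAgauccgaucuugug
hsa-let-7a-5p (MIR100HG): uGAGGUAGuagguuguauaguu
hsa-let-7c-5p (MIR99AHG): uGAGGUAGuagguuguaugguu
hsa-miR-125b-5p (both hosts): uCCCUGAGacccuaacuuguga

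Within each of these pairs the seed is identical, and the mature miR-125b-5p is the same from both hosts. Whether the level of any of these mature microRNAs changed was not measured.

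Enzymes of NAD, polyamine and tryptophan metabolism changed, mostly upward. Of 28 genes of the nitrogen, tryptophan, tetrahydrobiopterin and NAD list 16 rose and 4 fell (median 0.27). These are 57.1% and 14.3%, beside 17.6% and 15% over all genes. Library totals gave 12 and 5, and 10 and 2 were called in every fit that left out a library. NAMPT (chr7:106248285-106286326, minus strand), the rate-limiting enzyme of NAD salvage, had 129 and 115 CPM with vehicle and 1138 and 1179 CPM with IL1β (log2 change 3.25 ± 0.07, adjusted p = 1.15e-19). QPRT, which makes NAD from tryptophan breakdown, had 502 and 526 CPM with vehicle and 359 and 326 CPM with IL1β (log2 change -0.59 ± 0.07). SAT1, which acetylates polyamines for export, had 31.7 and 35.1 CPM with vehicle and 199.7 and 238 CPM with IL1β (log2 change 2.71 ± 0.09). IL4I1, an amino acid oxidase, had 1.52 and 1.23 CPM with vehicle and 15.3 and 16.96 CPM with IL1β (log2 change 3.54 ± 0.21), and it shares exon sequence with NUP62. TDO2, which opens the tryptophan ring, rose 15.6-fold from 3 counts in each vehicle library.

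Hyaluronan and glycosaminoglycan genes moved both ways. TNFAIP6 (TSG-6, chr2:151357592-151380048, plus strand), which loads protein chains onto hyaluronan, had 0.139 and 0.153 CPM with vehicle and 22.9 and 17.5 CPM with IL1β (log2 change 7.06 ± 0.64, adjusted p = 2.52e-15). SDC4, a heparan sulfate proteoglycan of the cell surface, had 220.2 and 238 CPM with vehicle and 1433 and 1544 CPM with IL1β (log2 change 2.70 ± 0.07). CD44, the main hyaluronan receptor, had 434 and 447 CPM with vehicle and 1066 and 1025 CPM with IL1β (log2 change 1.25 ± 0.07). Among the other syndecans, SDC2 (-1.05 ± 0.16) and SDC1 (-0.45 ± 0.08) fell. The hyaluronan and glycosaminoglycan list gave 14 higher and 8 lower of 42, 33.3% and 19% beside 17.6% and 15% over all genes. Library totals gave 13 and 15.

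PLPP3 (chr1:56494747-56645301, minus strand), which removes phosphate from lysophosphatidic acid and sphingosine 1-phosphate, had 9.51 and 10.1 CPM with vehicle and 154 and 142 CPM with IL1β (log2 change 3.92 ± 0.09, adjusted p = 1.53e-20). SGPP2, a phosphatase of sphingosine 1-phosphate, had 5.91 and 5.47 CPM with vehicle and 37.99 and 36.5 CPM with IL1β (log2 change 2.71 ± 0.12). CYP1B1, which hydroxylates oestrogens, had 105 and 103 CPM with vehicle and 502 and 467 CPM with IL1β (log2 change 2.22 ± 0.07). CYP7B1, which hydroxylates oxysterols, rose 16.3-fold from under 1 CPM. The list of sphingolipid, phospholipase and steroid enzymes had 20 higher and 4 lower of 45 (median 0.22). These are 44.4% and 8.89%, beside 17.6% and 15% over all genes. Library totals gave 13 and 8, and 11 and 2 were called in every fit that left out a library. Receptors of these 2 lipids went both ways. Of those for lysophosphatidic acid, LPAR5 fell as given above, LPAR3 fell (log2 change -0.76), LPAR1 rose (0.40) and LPAR2 was not called. Of those for sphingosine 1-phosphate, S1PR3 (1.35) and S1PR1 (0.62) rose, S1PR5 fell (-0.71) and S1PR2 was not called.

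Complement and protease inhibitor genes rose more often than they fell. Of 39 complement and coagulation genes 20 rose and 4 fell (median 0.41). These are 51.3% and 10.3%, beside 17.6% and 15% over all genes. Library totals gave 19 and 13, and 19 and 3 were called in every fit that left out a library. C3 (chr19:6677704-6730562, minus strand), the central complement protein, had 159.9 and 160.3 CPM with vehicle and 771 and 856 CPM with IL1β (log2 change 2.35 ± 0.08). CFB, the protease of the alternative pathway, had 1.52 and 1.53 CPM with vehicle and 30.4 and 34.98 CPM with IL1β (log2 change 4.41 ± 0.19). F2R, the thrombin receptor PAR1, had 122 and 122.8 CPM with vehicle and 62.7 and 63.5 CPM with IL1β (log2 change -0.96 ± 0.07).

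Of 14 serpins 7 rose, each at least 2-fold, and 2 fell. These are 50% and 14.3%, beside 17.6% and 15% over all genes. Library totals gave 7 and 4, and 7 and 0 were called in every fit that left out a library. SERPINB3 and SERPINB4, near-identical copies whose reads may be split, rose 17-fold and 15.1-fold. The long pentraxin PTX3 had 4.99 and 4.396 CPM with vehicle and 121 and 110 CPM with IL1β (log2 change 4.62 ± 0.12). The elastase inhibitors PI3 and SLPI had rises of 11.7-fold and 4.63-fold. OLR1 (LOX-1, chr12:10158301-10172138, minus strand), a scavenger receptor of oxidised lipoproteins, had 277 and 261 CPM with vehicle and 2892 and 2958 CPM with IL1β (log2 change 3.44 ± 0.07, adjusted p = 1.53e-20). ALDH1A3, which makes retinoic acid, had 941 and 927 CPM with vehicle and 3698 and 3579 CPM with IL1β (log2 change 1.96 ± 0.07), and TNFAIP2 had 18.2 and 20.8 CPM with vehicle and 1074 and 1087 CPM with IL1β (log2 change 5.79 ± 0.08).

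Genes lowered by large folds included membrane and nuclear proteins. SLITRK5 (chr13:87672615-87696272, plus strand), a membrane protein of synapses, had 63.9 and 64.2 CPM with vehicle and 10.8 and 13 CPM with IL1β (log2 change -2.43 ± 0.11, adjusted p = 6.19e-15). SAMD11 (chr1:923928-944581, plus strand), a nuclear protein with a SAM domain, had 71.2 and 78.7 CPM with vehicle and 12.4 and 15.2 CPM with IL1β (log2 change -2.45 ± 0.12, adjusted p = 2.1e-13). SMTNL2 had 9.23 and 10.99 CPM with vehicle and 1.06 and 1.32 CPM with IL1β (log2 change -3.08 ± 0.27). All 3 fell in both IL1β libraries to levels under any vehicle library, which was required for naming them. TRIL, an accessory protein of Toll-like receptors, had 5.49 and 6.08 CPM with vehicle and 0.895 and 1.13 CPM with IL1β (log2 change -2.51 ± 0.30). LIN28A, which blocks let-7 maturation, had 8.81 and 8.13 CPM with vehicle and 1.23 and 2.76 CPM with IL1β (log2 change -2.10 ± 0.27). GRAMD1B, which carries cholesterol between membranes, was 5.81-fold lower. The vesicle proteins SYTL1 and SYTL5 were 4.01-fold and 4.12-fold lower.

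Abundant genes were lowered too. DAB2 (chr5:39371675-39462300, minus strand), an endocytic adaptor of TGF-β and integrin signalling, had 836 and 802 CPM with vehicle and 296 and 341 CPM with IL1β (log2 change -1.36 ± 0.09, adjusted p = 2.72e-11). ITGB4, the laminin-binding integrin of hemidesmosomes, had 317 and 302 CPM with vehicle and 155 and 139 CPM with IL1β (log2 change -1.07 ± 0.08). PTPN13, a tyrosine phosphatase, had 243 and 220.5 CPM with vehicle and 115 and 109 CPM with IL1β (log2 change -1.05 ± 0.09). PODXL, a sialomucin of the apical surface, had 1009 and 1026 CPM with vehicle and 681 and 639 CPM with IL1β (log2 change -0.62 ± 0.07). LAMB1 and KRT19 fell 1.47-fold and 1.42-fold. Adjusted p was at most 1.32e-05.

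Some raised genes lay side by side. Taking the 12952 tested coding genes with a position in chromosome order, 4.35% rose and 3.0% fell at least 2-fold. Runs of at least 3 neighbours, all raised as far, numbered 18 and held 63 genes, with up to 6 in a run. Lowered runs numbered 2 and held 6 genes. Without the 2-fold minimum there were 151 raised and 79 lowered runs. Runs of GBP, SAA, MMP, OAS, CCL and CXCL genes are families, whose near-identical members can share reads.

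Other runs held unrelated genes. On chromosome 9 the cytokine TNFSF15 (3.54 ± 0.49), the matrix protein TNC (2.92 ± 0.08) and the protease PAPPA (3.11 ± 0.14) rose together (chr9:114784635-116402322). On chromosome 19 the TNF family ligands CD70 (2.42 ± 0.19) and TNFSF14 (5.38 ± 0.65) adjoined C3 (2.35 ± 0.08; chr19:6583183-6730562).

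The lowered runs were on chromosomes 2 and 10. TMEM37 had 16.4 and 16.7 CPM with vehicle and 3.13 and 1.95 CPM with IL1β (log2 change -2.69 ± 0.22), and its neighbours were the secretin receptor SCTR (-1.99 ± 0.20) and the ciliary gene CFAP221 (-1.22 ± 0.32; chr2:119429901-119662251). NEBL, MIR1915HG and SKIDA1 (chr10:20779973-21526368) had -1.26 ± 0.17, -1.11 ± 0.24 and -1.55 ± 0.36. SKIDA1 lost its call without IL1β replicate 1 (adjusted p = 0.0533). MIR1915HG is a coding gene in the GENCODE 29 annotation.

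**Figure D4:**
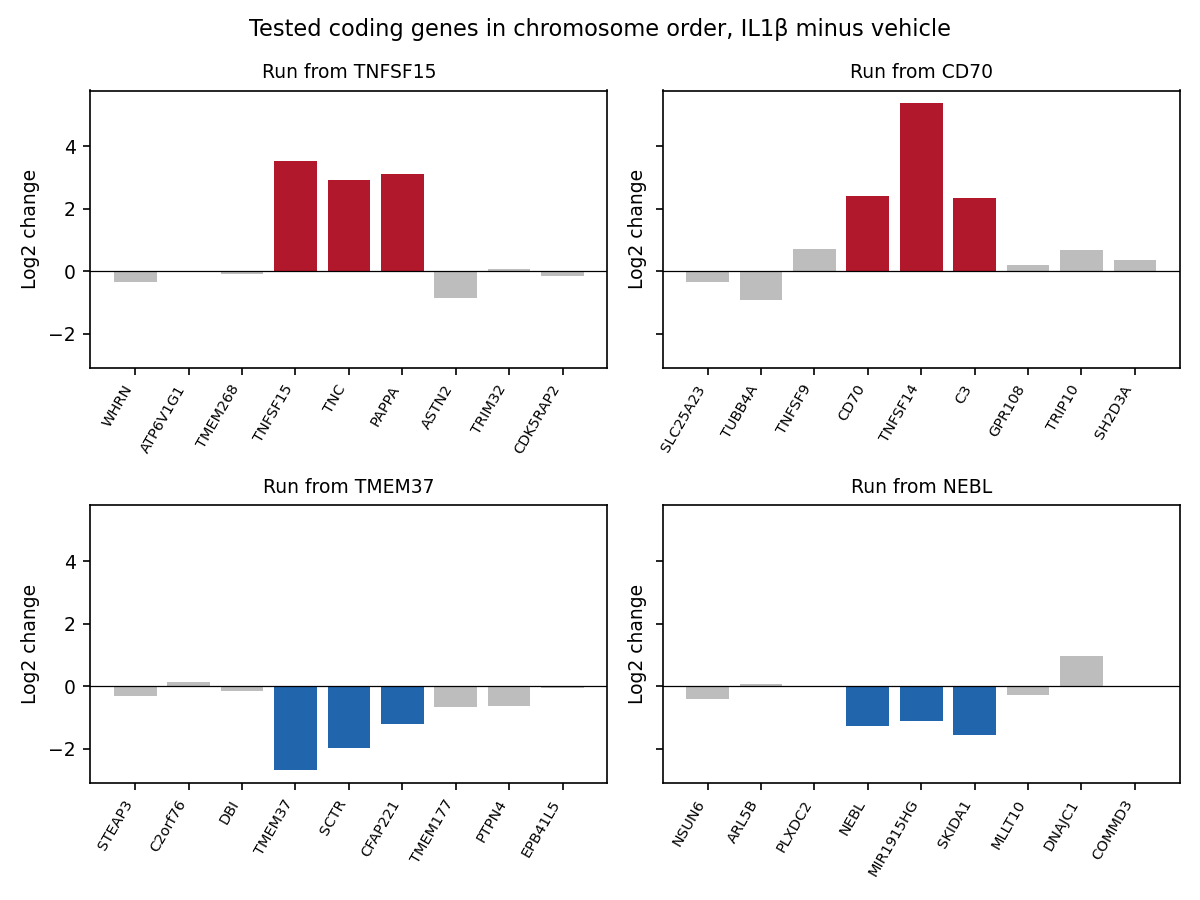
Log2 change (vertical axis, IL1β minus vehicle) of tested coding genes in chromosome order for 4 runs with 3 tested neighbours on each side; red and blue bars were called and changed at least 2-fold, grey bars were not. Flanking genes in these 4 windows changed by less than 2-fold.

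Promoters of raised genes held the NF-κB motif more often. RefSeq windows (GRCh38.p14) from 250 bases before to 50 after the start site were matched by symbol for 11220 of the 15740 tested genes. The NF-κB motif was taken as GGGRNWYYCC (R is A or G, Y is C or T, W is A or T, N is any base). Searched on both strands, it was found in 6.26% of 7239 promoters of genes not called. The share was 15% of 454 for genes raised at least 2-fold and 21.4% of 187 for genes raised at least 4-fold. The NF-κB motif was in 6.93% of 332 promoters of genes lowered at least 2-fold, in 6.82% of all tested and in 5.72% of all 27305 windows. The AP-1 motif TGANTCA was in 4.67%, 10.4%, 13.4% and 3.61% in the same order, in 4.79% of all tested and in 7.76% of all windows. Genes raised 4-fold are part of the 2-fold set, and these shares are descriptions with no test.

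**Figure D5:**
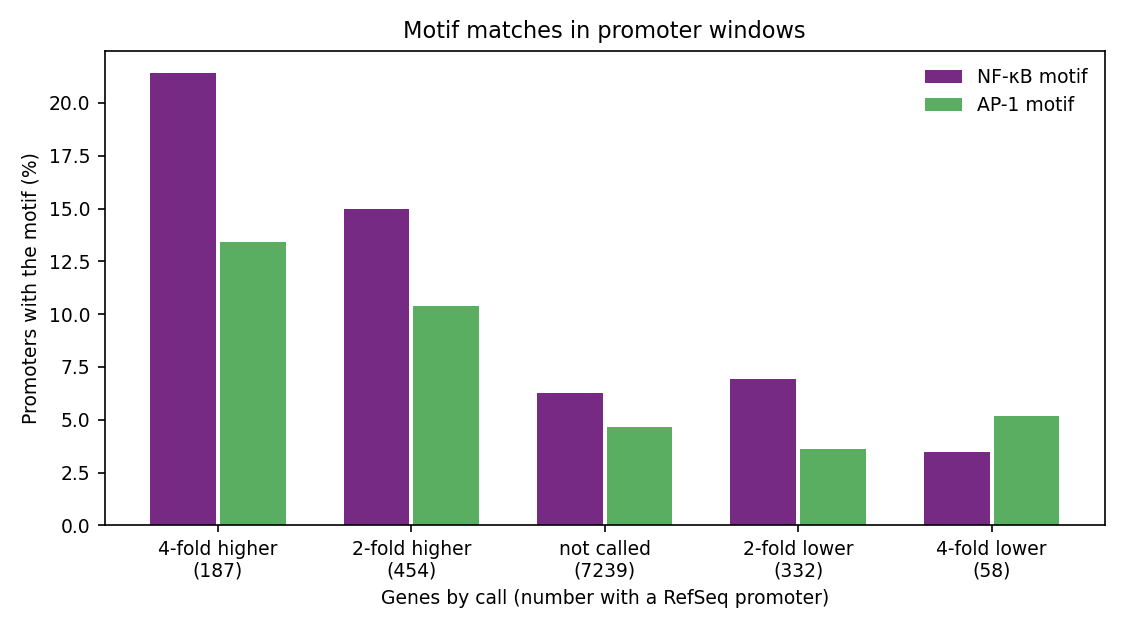
Percent of promoter windows with the NF-κB motif (purple) or the AP-1 motif (green) by call, with the number of genes that had a window in brackets; the sets called at least 2-fold include those called at least 4-fold. The share with the NF-κB motif was 21.4% for genes raised at least 4-fold and 6.26% for genes not called.

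The chemokine run on chromosome 4 holds 6 raised genes, of which 5 had an NF-κB match in the window. The window of CXCL8, with 8.95 ± 0.26 among the largest log2 changes of the run, held no match to this motif and 2 to AP-1. That says only that no stretch of its window fits the exact pattern. Sites that differ from the pattern were not searched. CXCL1 had 0.877 and 1.89 CPM with vehicle and 739.9 and 699 CPM with IL1β. CXCL6 had 15 and 17.6 CPM with vehicle and 923 and 877 CPM with IL1β. CXCL5 had 0 counts in both vehicle libraries and 22 and 19 with IL1β, at least 16.7-fold higher with 3 counts over the group taken as the upper limit. The stretch matching the NF-κB motif is in capitals, with 20 bases on each side, 5′ to 3′ on the gene's strand.
CXCL1 (chr4:73869294-73869344, plus): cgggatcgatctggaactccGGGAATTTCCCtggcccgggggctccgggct
CXCL2 (chr4:74099243-74099293, minus): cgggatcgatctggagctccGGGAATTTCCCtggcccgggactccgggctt
CXCL3 (chr4:74038738-74038788, minus): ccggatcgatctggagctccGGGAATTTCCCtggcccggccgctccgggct
CXCL5 (chr4:73998738-73998788, minus): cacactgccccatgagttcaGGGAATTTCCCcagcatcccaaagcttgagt
CXCL6 (chr4:73836568-73836618, plus): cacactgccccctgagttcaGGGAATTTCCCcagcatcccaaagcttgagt

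The capitals are the same 11 letters in all 5, since 10-letter matches on the 2 strands overlap there. Flanks of CXCL1, CXCL2 and CXCL3 resemble each other, as do those of CXCL5 and CXCL6, and these genes are close paralogs. Raised genes outside the chemokines with a match in the window included ELF3, SDC4 and TNFRSF9, whose levels are given above.
ELF3 (chr1:202010479-202010528, plus): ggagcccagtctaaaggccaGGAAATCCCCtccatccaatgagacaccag
SDC4 (chr20:45348492-45348541, minus): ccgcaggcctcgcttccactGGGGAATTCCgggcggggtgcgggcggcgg
TNFRSF9 (chr1:7940883-7940933, minus): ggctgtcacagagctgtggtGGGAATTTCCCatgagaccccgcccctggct

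The match starts 88 bases before the start site in ELF3, 97 in SDC4 and 74 in TNFRSF9. No match was in the windows of SLC39A8, NAMPT, IRAK2, SLC2A6, TNFAIP2 or PLPP3, which says only that these letters are not in those 300 bases. The windows of MIR155HG and TNFAIP6 held no NF-κB match and 2 AP-1 matches each. A match is a description of the sequence, and binding was not measured.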

How the data were processed

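Poly(A) RNA of 10 samples in 5 groups was measured, of which 4 (2 vehicle, 2 IL1β) are compared here. The authors deposited raw counts as 1 table of whole numbers, gene IDs by libraries. The tools were fastp, STAR and featureCounts on build hg38, per the submitters' processing notes. Their versions and strand setting were not given in the sources used here. Of 62750 IDs, 61918 matched a symbol table with their version, 754 without it and 78 did not; 1480 IDs with a repeated symbol were not named. Positions and types are from GENCODE 29.

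Counts were filtered (filterByExpr, minimum count 10), scaled with TMM and fitted in edgeR 4.0.16 (R 4.3.3; quasi-likelihood, robust, 5 residual degrees of freedom) over all 10 libraries. P-values were adjusted by Benjamini-Hochberg over 15740 genes, threshold 0.05; the common biological coefficient of variation was 0.06. SEs are from the fitted variance, not below counting error. The script was tested on simulated data.

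The 55 gene lists and the members were chosen with earlier results of these data known. Named genes come from called genes with a mean of at least 2 CPM in the higher group and separate libraries: the 5 largest changes per list and direction, the 30 largest coding changes, the 15 largest CPM differences and the 12 largest long noncoding changes in each direction, members of neighbour runs, and the 2 most abundant members per list. The text gives part of these genes, and a few items are not reported here. Alternatives were other scalings (library totals, relative log expression), no filter, CPM of at least 5, only the 4 libraries, a replicate block, length and GC offsets, DESeq2 1.42.0 and leaving out each library. Exon overlap used bedtools 2.31.1. Counting intervals and limits cover counting error only.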

Additional observations from a re-analysis of the deposited data

How the results depend on the processing

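Library totals moved the counts from 2769 to 1623 genes higher and from 2360 to 4730 lower, and by at least 2-fold from 679 to 558 higher and from 490 to 811 lower. A minimum of 5 CPM, which tests fewer genes, left 448 genes higher and 210 lower by at least 2-fold. Leaving out 1 library gave 2114 to 2335 genes higher and 1393 to 1624 lower, and by at least 2-fold 633 to 674 higher and 391 to 439 lower. DESeq2 gave 2585 higher and 1715 lower. With the replicate number as a block 2686 genes were higher and 2249 lower. Deviations of same-numbered vehicle and IL1β libraries from their group means had r = 0.045, across genes. The labels do not say whether the numbers pair the samples, and with 2 libraries per group this value cannot decide it. Of 633 genes named by the rule, 457 kept their call in all alternatives in which they were tested, and none reversed in any of the 12. Under 1 CPM 13.9% of coding and 9.12% of long noncoding genes were called; the part of depth in this was not tested.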

Other observations

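Further gene groups changed in part. Regulators of RNA decay and translation gave 16 higher and 5 lower of 48 (library totals 8 and 9). The endonuclease ZC3H12A (regnase 1), which cleaves cytokine mRNAs, had 16.7 and 19.8 CPM with vehicle and 323 and 327 CPM with IL1β (log2 change 4.16 ± 0.09), and its relative ZC3H12C rose 3.06-fold. Of cell cycle genes 12 rose and 9 fell of 45 (library totals 8 and 18). The kinase PLK3 had 13.3 and 14.7 CPM with vehicle and 50.9 and 46.2 CPM with IL1β (log2 change 1.80 ± 0.10), the inhibitor CDKN1A rose 2.02-fold, and the inhibitor CDKN2C fell 1.86-fold. Of 39 proteasome genes 9 rose and 0 fell (library totals 2 and 4); PSMB10, an immunoproteasome subunit, rose 2.23-fold and shares exon sequence with an unnamed gene.

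Phosphodiesterase genes of 1 family moved apart. PDE4B, which breaks down cyclic AMP, had 8.59 and 8.23 CPM with vehicle and 2.46 and 2.7 CPM with IL1β (log2 change -1.70 ± 0.21). PDE4D had 16.9 and 14.5 CPM with vehicle and 31.2 and 35.04 CPM with IL1β (log2 change 1.07 ± 0.10). Among regulators of small GTPases, 26 rose and 17 fell of 118 (library totals 19 and 26). RASGRP1, an activator of RAS, had 2.91 and 1.89 CPM with vehicle and 16.7 and 17.5 CPM with IL1β (log2 change 2.82 ± 0.19). Of 14 keratins 2 rose and 2 fell (library totals 2 and 3); KRT17 rose 2.91-fold and KRT34 2.59-fold, and KRT8 was not called (adjusted p = 0.656). Of 28 antagonists and SMADs of the BMP, TGF-β and activin pathways 11 rose and 3 fell (library totals 11 and 6). BMPER, a secreted modulator of BMP, had 6.51 and 8.69 CPM with vehicle and 29.3 and 27.1 CPM with IL1β (log2 change 1.90 ± 0.13), and SMAD9 fell 2.42-fold. Adjusted p in both paragraphs was at most 0.000944 for the genes said to rise or fall.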
